A study of Homo sapiens with 16 samples.

Results

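In many prostate cancers, a chromosomal rearrangement joins the regulatory region and first exons of a gene that is active in prostate epithelium to the coding part of an ETS transcription factor gene. ETS proteins share a DNA-binding domain that reads a short GGAA core, and most luminal prostate cells hold ERG, ETV4 and ETV5 at a low level until such a fusion places them under an androgen-driven promoter. TMPRSS2, SLC45A3, NDRG1, HERPUD1 and ACSL3 are 5 genes reported as the 5′ partner in these fusions, and ERG, ETV4 and ETV5 are ETS genes reported as the 3′ partner. These 8 genes, chosen by name with earlier results of these data known, are described here out of 60605 gene identifiers in the count tables. Each of the 8 symbols matched 1 identifier, and each passed the filter on low counts in every comparison.

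The samples were LNCaP, an established androgen-sensitive line from a lymph node metastasis of prostate cancer, which has a rearranged ETV1. Transcription was measured by PRO-seq, which labels and sequences nascent RNA at engaged RNA polymerases, so a count reports transcription in progress rather than stored mRNA. In batch 2, cells were given DMSO vehicle for 90 min, vehicle for 30 min and then 6 Gy of ionizing radiation (IR) with 60 min of further incubation, 10 µM enzalutamide for 90 min, or enzalutamide at the same dose for 30 min before that IR and 60 min after it. Enzalutamide is an antiandrogen drug that blocks the cell's response to androgen. Batch 1 held mock cells and cells given 6 Gy, with no enzalutamide and no times of its own in the labels. All groups grew in medium with serum, the labels name no addition or withdrawal of androgen, and all 6 groups come from 1 cell line. Each group had 2 replicates, numbered 1 and 2 in batch 1 and 3 and 4 in batch 2. Nothing in the labels says that these are separate cultures, so p-values measure only the spread between these samples, which may be technical. In batch 1 every replicate number covers 2 libraries, t1 and t2, whose meaning the labels do not give. Their counts were added, which turned 16 libraries into 12 samples.

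Batch 1 libraries held 3438642 to 9363458 counts and batch 2 libraries 10494563 to 19905824. After t1 and t2 were summed, the lower members held similar numbers of counts in both batches. The mitochondrial share was 2.86 to 5.38% in batch 1 libraries and 0.57 to 0.934% in batch 2 libraries. All 9 markers of LNCaP cells were detected in every sample, among them FOLH1, which encodes prostate-specific membrane antigen, at 972 to 1390 CPM (counts scaled to a common library size with TMM factors). KLK3, which encodes prostate-specific antigen, was at 141 to 187 CPM in batch 1 and at 5.09 to 16.9 CPM in batch 2. Of 3 immune markers, PTPRC and CD3E reached at most 0.891 and 0.684 CPM, and CD68, a lysosomal protein gene, was at 46.03 to 63.2 CPM. The basal markers KRT5, KRT14 and TP63 reached at most 0.742, 1.66 and 7.37 CPM, and the fibroblast markers COL1A2, DCN and COL1A1 at most 1.10, 1.25 and 10.99 CPM. In batch 2 the summed level of the 3 endothelial markers was 21.2 to 23.4 CPM in vehicle and 17.7 to 21.0 CPM with vehicle and IR. It was 16.6 to 19.3 CPM with enzalutamide and 14.95 to 15.57 CPM with enzalutamide and IR. In batch 1 it was higher, at 37.88 to 37.94 CPM in mock cells and 33.6 to 36.9 CPM after IR. Most of that sum was VWF, and the part of these genes in the results below was not tested. In a bulk sample, fewer transcribing cells and less transcription per cell cannot be told apart.

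The promoters of SLC45A3, HERPUD1 and ACSL3 are shown because, of these 3 fusion partners, SLC45A3 passed the test with enzalutamide and HERPUD1 and ACSL3 did not. Each run is the 250 bases before the RefSeq transcription start on GRCh38.p14, 5′ to 3′ on the gene's strand. Capitals mark matches to motifs that were searched on both strands: the androgen response element (AGAACA and TGTTCT with any 3 bases between) and its 6-base part AGAACA alone, the endoplasmic reticulum stress response elements I (CCAAT and CCACG with any 9 bases between) and II (ATTGG and CCACG with any 1 base between), the CCAAT box, the TATAAA box, and the ETS site CCGGAAGT.
SLC45A3 (minus strand, chr1:205680510-205680759): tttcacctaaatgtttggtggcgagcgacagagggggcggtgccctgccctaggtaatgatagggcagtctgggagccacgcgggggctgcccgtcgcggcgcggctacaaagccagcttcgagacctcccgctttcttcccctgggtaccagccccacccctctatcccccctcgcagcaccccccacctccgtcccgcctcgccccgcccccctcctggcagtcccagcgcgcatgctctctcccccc
HERPUD1 (plus strand, chr16:56931892-56932141): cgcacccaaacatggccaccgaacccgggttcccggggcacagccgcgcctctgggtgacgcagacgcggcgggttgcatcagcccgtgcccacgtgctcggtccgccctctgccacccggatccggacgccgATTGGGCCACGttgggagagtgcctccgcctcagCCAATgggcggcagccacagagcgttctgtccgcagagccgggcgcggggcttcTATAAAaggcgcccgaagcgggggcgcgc
ACSL3 (plus strand, chr2:222860786-222861035): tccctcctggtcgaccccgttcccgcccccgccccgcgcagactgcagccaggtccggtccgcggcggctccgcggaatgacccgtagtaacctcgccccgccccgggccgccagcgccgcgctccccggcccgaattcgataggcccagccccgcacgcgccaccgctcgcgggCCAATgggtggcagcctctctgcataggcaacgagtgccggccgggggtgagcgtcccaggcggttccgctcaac

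SLC45A3 held none of these letters in its window, so its run has no capitals. HERPUD1 held an ATTGGGCCACG match to stress response element II, from -117 to -107 relative to the start, a form found in 0.0541% of the 35116 RefSeq promoter windows of 300 bases. The first 5 bases of that match are also a CCAAT box read on the opposite strand. HERPUD1 had another CCAAT from -83 to -79, and ACSL3 had 1 from -75 to -71. CCAAT in either direction occurred in 34.6% of windows. A TATAAA match stood from -29 to -24 in HERPUD1, and 11.5% of windows have one. The 6-base part of the androgen response element, present in 14.8% of windows, was in none of the 4 member windows in the RefSeq table, the fourth being ERG, and the ETS site, present in 4.14%, was also in none. These are letter matches in short windows, and sites elsewhere were not searched. TMPRSS2, NDRG1, ETV4 and ETV5 have no sequence shown.

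By level per kb of gene in vehicle cells, the 5 fusion partner genes stood above all 3 ETS genes. Levels were CPM divided by the RefSeq gene length and ranked among 19132 protein-coding genes. The feature that was counted for each gene is not given in the sources used here, so a level per kb is approximate. TMPRSS2, a cell-surface serine protease (chromosome 21, 41464305 to 41508158), was at 10.6 ± 0.55 CPM per kb (SD, n = 2), rank 404. HERPUD1, a membrane protein of the endoplasmic reticulum that takes part in the removal of misfolded proteins (chromosome 16, 56932142 to 56944864), was at 3.33 ± 0.662 CPM per kb (SD, n = 2). SLC45A3, a transporter known as prostein (chromosome 1, 205657851 to 205680509), was at 3.22 ± 0.101 CPM per kb (SD, n = 2). HERPUD1 and SLC45A3 differed by less than their spread.

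ACSL3, which activates long-chain fatty acids for lipid synthesis (chromosome 2, 222861036 to 222944639), followed at 2.10 ± 0.0649 CPM per kb (SD, n = 2). NDRG1, a stress-responsive and androgen-responsive cytoplasmic protein (chromosome 8, 133237175 to 133297252), was at 1.19 ± 0.154 CPM per kb (SD, n = 2), the lowest of the 5 fusion partners and above 66.2% of protein-coding genes. The ETS genes were lower, with ETV4 (chromosome 17, 43527846 to 43546340) at 0.126 ± 0.0328, ETV5 (chromosome 3, 186046314 to 186109089) at 0.0493 and ERG (chromosome 21, 38367261 to 38661783) at 0.0285 CPM per kb. ERG stood above 14.1% of protein-coding genes and ETV5 above 24.6%. ETV1, the PEA3-family relative of ETV4 and ETV5, was at 0.0282 CPM per kb in vehicle cells. That level differed from that of ERG by less than the spread of ETV1 between its vehicle samples. In mock cells of batch 1 ETV1 was higher, at 0.0889 CPM per kb, beside 0.0400 CPM per kb for ERG.

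The precision of the ETS genes is limited by their counts per sample, which were 71 to 167 for ERG, 36 to 91 for ETV5 and 15 to 82 for ETV4. Whether the authors counted reads by strand is not given in the sources used here. ETV4 overlaps DHX8 in RefSeq, a gene with 671 to 1701 counts per sample, so ETV4 values are uncertain. ACSL3 and ETV5 overlap the antisense genes ACSL3-AS1 and ETV5-AS1, which held at most 2 and at most 1 counts per sample. RefSeq also places the long noncoding genes LOC105371701 over SLC45A3, LOC105372802 over ERG and LOC124909470 over ETV5, and no identifier in the tables matched these names.

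**Figure D1:**
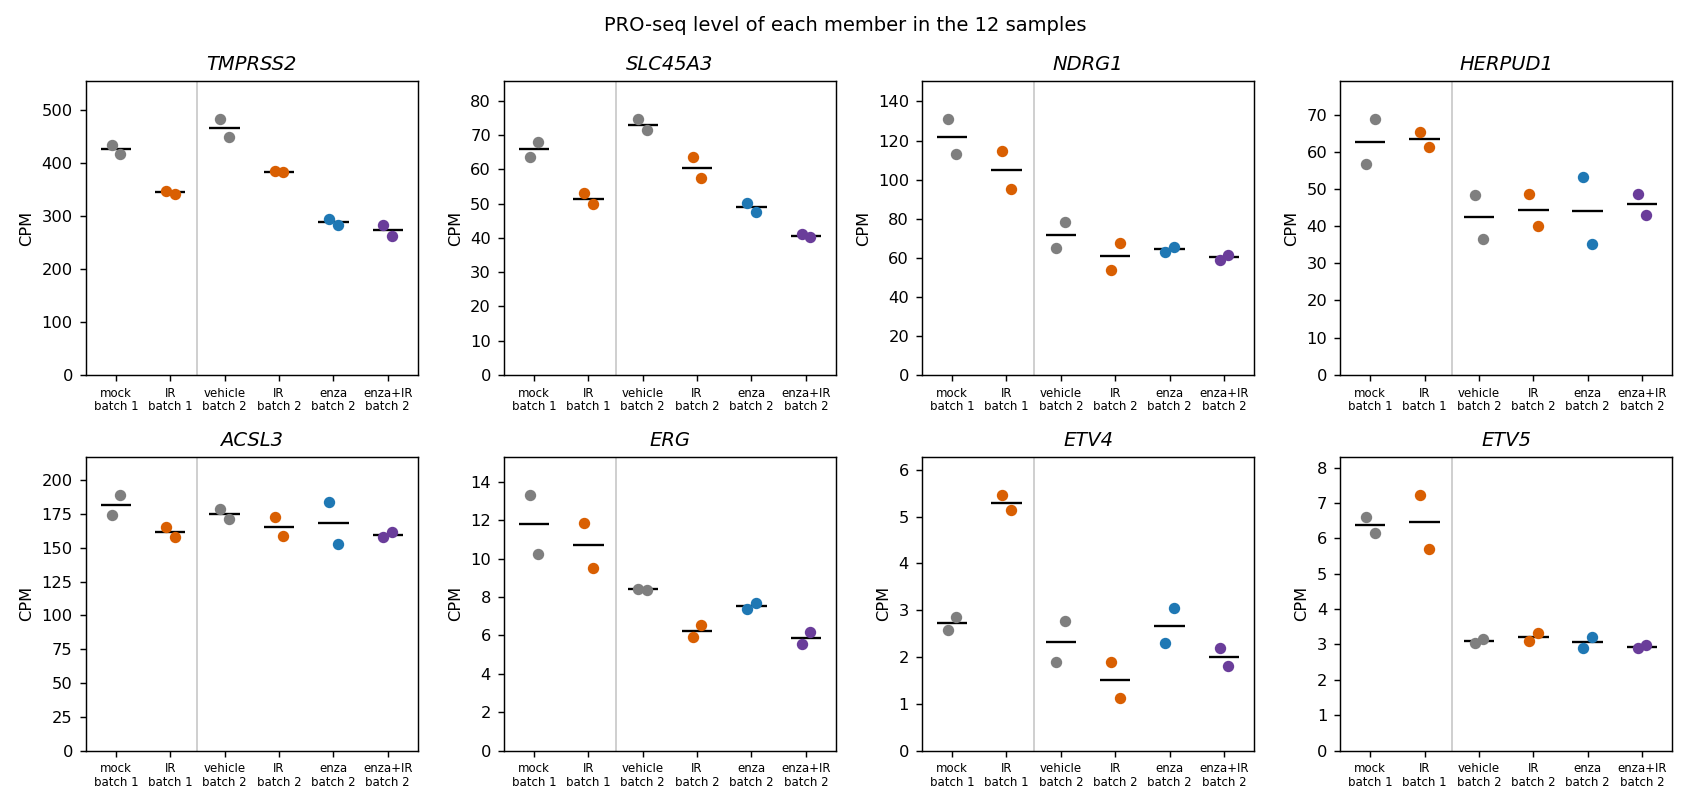
PRO-seq level of the 8 genes in the 12 samples, in TMM-scaled CPM (linear axes from 0); points are samples, bars are group means and the grey line separates the batches. TMPRSS2 and SLC45A3 are lower in every enzalutamide sample than in any sample of batch 2 without the drug, and ETV4 is highest in the irradiated samples of batch 1.

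The first comparison asked what enzalutamide did to these genes within 90 min. Transcription of the fusion partner genes TMPRSS2 and SLC45A3 fell by 33.3% and 32.6%, while NDRG1, HERPUD1, ACSL3, ERG, ETV4 and ETV5 did not pass the test. TMPRSS2 was at 483 and 449 CPM in vehicle and at 294 and 283 CPM with enzalutamide. In irradiated cells TMPRSS2 was at 386 and 383 CPM with vehicle and at 284 and 263 CPM with enzalutamide. All 4 enzalutamide samples lay below all 4 samples without it, a pattern that 1.21% of all tested genes showed in the lower direction. Averaged over IR, the log2 fold change of TMPRSS2 was -0.58 (SE 0.0622, 95% interval -0.72 to -0.45, adjusted p = 0.00123, edgeR quasi-likelihood test with Benjamini-Hochberg adjustment). On the linear scale its level fell by 33.3%.

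SLC45A3 was at 74.6 and 71.3 CPM in vehicle and 50.1 and 47.7 CPM with enzalutamide. After IR it was at 63.5 and 57.6 CPM with vehicle and 41.1 and 40.2 CPM with enzalutamide. Here too the 4 drug samples did not overlap the other 4. The log2 fold change averaged over IR was -0.57 (SE 0.0561, 95% interval -0.69 to -0.45, edgeR adjusted p = 0.000828), and the level fell by 32.6%. These 2 of 8 genes compare with 18 of 28651 genes called in the whole table, 0.0628%, all of them lower. Both calls held under all 13 alternatives, with adjusted p from 0.00187 to 0.00745 for TMPRSS2 and from 0.00145 to 0.00887 for SLC45A3 as each sample was left out.

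The other 3 fusion partners did not pass. ACSL3 was at 179 and 171 CPM in vehicle, 184 and 153 with enzalutamide, 173 and 158 with IR and 158 and 161 CPM with both. Its log2 fold change averaged over IR was -0.05, with an interval of -0.17 to 0.08, which leaves out a fall of the size seen in TMPRSS2. NDRG1 was at 65.1 and 78.2 CPM in vehicle, 62.9 and 65.6 with enzalutamide, 53.9 and 67.6 with IR and 58.7 and 61.6 CPM with both. Its change was -0.08, with an interval of -0.26 to 0.10.

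HERPUD1 was at 48.3 and 36.4 CPM in vehicle, 53.2 and 35.2 with enzalutamide, 48.5 and 40.1 with IR and 48.7 and 43.1 CPM with both. Replicate 3 was above replicate 4 in each of these 4 groups. Its log2 fold change was 0.07, with an interval of -0.17 to 0.31. The intervals of these 3 genes did not reach those of TMPRSS2 and SLC45A3, whose upper ends were -0.45; differences between genes were not tested.

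ERG was at 8.43 and 8.38 CPM in vehicle and 7.38 and 7.68 CPM with enzalutamide, and after IR at 5.94 and 6.56 CPM with vehicle and 5.56 and 6.18 CPM with enzalutamide. Its change averaged over IR was -0.12, with an interval of -0.36 to 0.12. ETV5 was at 3.03 and 3.16 CPM in vehicle and between 2.90 and 3.32 CPM in the other 6 samples of batch 2. Its change was -0.07, with an interval of -0.40 to 0.26. ETV4 ranged from 1.13 to 3.04 CPM over the 8 samples, and its change of 0.25 had an interval of -0.23 to 0.73, too wide to exclude a rise or fall of moderate size. ETV1 had a change of 0.00 with enzalutamide (SE 0.267).

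The estimates of TMPRSS2 and SLC45A3 were also below 0 without and with IR taken separately, though only TMPRSS2 without IR passed. Without IR, TMPRSS2 changed by -0.69 (SE 0.0882, edgeR adjusted p = 0.0285), 1 of 3 genes called in the whole table (0.0105%). That call was lost without vehicle replicate 3 (adjusted p = 0.309), vehicle replicate 4 (0.106), IR with vehicle replicate 3 (0.065), IR with vehicle replicate 4 (0.0558) or enzalutamide with IR replicate 3 (0.0534). SLC45A3 was at -0.58 (SE 0.0866, edgeR adjusted p = 0.115), and passed with the replicate number as a block (adjusted p = 0.000116). With IR, the change was -0.48 for TMPRSS2 (SE 0.0883, edgeR adjusted p = 0.469) and -0.56 for SLC45A3 (SE 0.0888, edgeR adjusted p = 0.175), and none of the 8 genes passed against a background of 0.0105%. With the block both passed there, with adjusted p of 0.00285 and 0.000605, and 0.192% of all genes did.

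**Figure D2:**
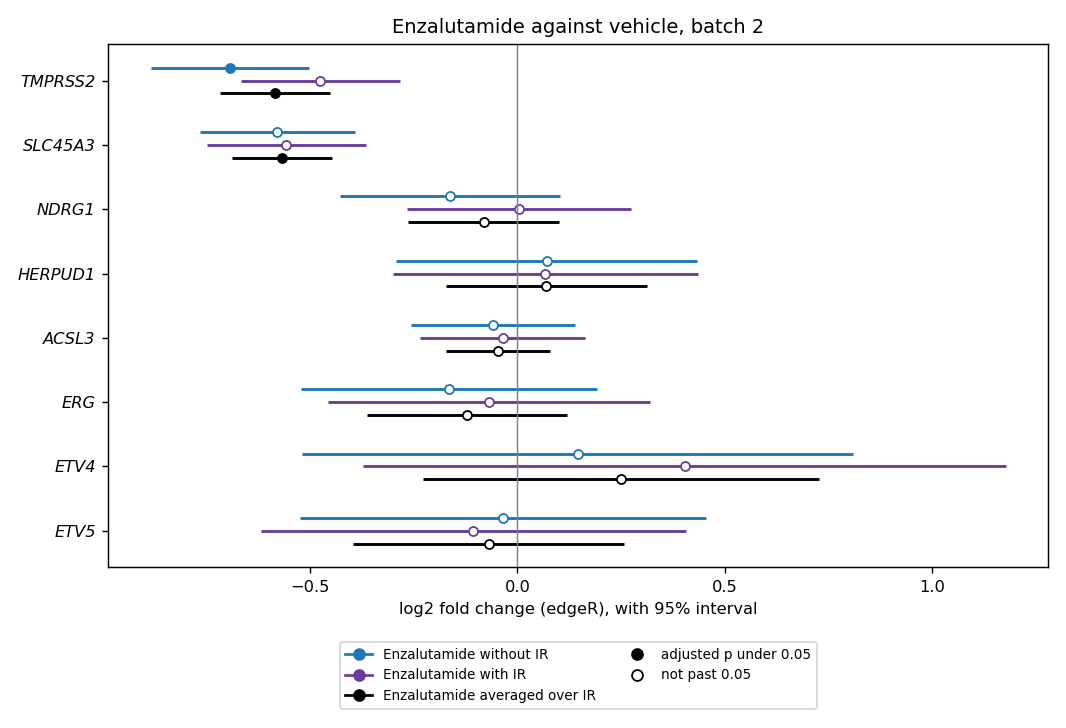
Log2 fold change of each gene, enzalutamide against vehicle, with 95% intervals from edgeR, without IR, with IR and averaged over both; filled points have an adjusted p under 0.05. The averaged values of TMPRSS2 and SLC45A3 lie at -0.58 and -0.57, and the averaged intervals of the other 6 genes include 0.

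Whether IR altered the response to enzalutamide was tested as an interaction. No gene in the table passed in edgeR (0.00% of 28651, 343 at an unadjusted p under 0.05) or in DESeq2. The TMPRSS2 interaction was 0.22 (SE 0.124, 95% interval -0.05 to 0.49, unadjusted p = 0.104), which is a smaller fall under enzalutamide in irradiated cells that did not pass the test. For SLC45A3 it was 0.02 (SE 0.124, interval -0.25 to 0.29). Among the other 6 genes the interaction ran from -0.07 for ETV5 to 0.26 for ETV4.

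The next comparison asked how IR alone changed these genes, first in vehicle cells of batch 2. None of the 8 genes passed, with 1.10% of all genes called. TMPRSS2 was at 386 and 383 CPM after IR against 483 and 449 CPM, without overlap, as 22.6% of all genes were in the lower direction. Its log2 fold change was -0.28 (SE 0.0877, edgeR adjusted p = 0.243). SLC45A3 was at -0.27 (SE 0.0858, edgeR adjusted p = 0.248). With the replicate block both passed, at adjusted p of 0.0314 and 0.0318, and the background rose to 4.59%.

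ERG had lower values in both irradiated samples, 5.94 and 6.56 CPM against 8.43 and 8.38 CPM, as 22.6% of all genes did. Its log2 fold change was -0.43 (SE 0.169, edgeR adjusted p = 0.368). NDRG1 was at -0.24 and ETV4 at -0.62, with intervals of -0.51 to 0.03 and -1.35 to 0.10. In cells already given enzalutamide, none of the 8 passed either, with 0.918% of all genes called. TMPRSS2 then differed by -0.06 (95% interval -0.25 to 0.13) and SLC45A3 by -0.25 (interval -0.44 to -0.05, edgeR adjusted p = 0.384). These comparisons share vehicle or enzalutamide samples with those above, so their values stand side by side and are not independent.

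Batch 1 gave a separate measurement of IR. TMPRSS2 was at 436 and 417 CPM in mock cells and 348 and 342 CPM after IR. SLC45A3 was at 63.7 and 67.9 CPM and then 53.0 and 49.9 CPM. Neither passed, at log2 fold changes of -0.30 and -0.35 (edgeR adjusted p = 0.430 and 0.132), with 2.82% of all genes called. With the replicate block both did, at adjusted p of 0.0137 and 0.00186, against 9.01%.

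ETV4, an ETS factor of the PEA3 family, was the member furthest from 0 in batch 1. It was at 2.59 and 2.85 CPM in mock cells (20 and 25 counts) and at 5.46 and 5.14 CPM after IR (68 and 82 counts). The log2 fold change was 0.96 (SE 0.251, 95% interval 0.41 to 1.5), with an edgeR adjusted p of 0.0723 that missed the threshold. It passed under 4 alternatives, among them the block (adjusted p = 0.0104) and no filter on low counts (0.0115). As each sample of batch 1 was left out, the change ran from 0.894 to 1.03. In DESeq2 the adjusted p was 0.413. In vehicle cells of batch 2 the same contrast was -0.62, with 1.9003 and 1.8888 CPM in the replicate 3 samples and 2.76 and 1.13 CPM in those of replicate 4. As each sample was left out it ran from -1.04 to -0.31, the former without IR with vehicle replicate 3 and the latter without vehicle replicate 4. It was -0.33 without IR with vehicle replicate 4. The difference between batches was 1.56 (SE 0.423, 95% interval 0.67 to 2.45, unadjusted p = 0.00173, edgeR adjusted p = 0.450), where 0.106% of all genes passed. DHX8, which overlaps ETV4, was at -0.02 in batch 1 and -0.12 in batch 2.

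In the model that joined the batches, transcription of TMPRSS2 and SLC45A3 fell after IR. The TMPRSS2 log2 fold change was -0.30 (SE 0.0743, 95% interval -0.45 to -0.14, edgeR adjusted p = 0.0226), and its level fell by 18.7%. For SLC45A3 it was -0.32 (SE 0.0703, interval -0.47 to -0.17, edgeR adjusted p = 0.00917), and its level fell by 19.8%. These 2 of 8 genes stand beside 4.05% of all genes called, 1.66% in the lower direction. In both genes every irradiated sample lay below every unirradiated one, as in 1.51% of all genes.

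Neither call survived every alternative. The TMPRSS2 call was lost without IR replicate 1 of batch 1 (adjusted p = 0.0525), IR replicate 2 of batch 1 (0.197), vehicle replicate 3 (0.170), IR with vehicle replicate 3 (0.0563) or IR with vehicle replicate 4 (0.135), and SLC45A3 was lost without IR replicate 2 of batch 1 (0.144), vehicle replicate 3 (0.0744) or IR with vehicle replicate 4 (0.0972). RLE factors also ended the TMPRSS2 call (0.0852), and leaving out the filter on low counts ended both (0.0728 for TMPRSS2 and 0.0921 for SLC45A3).

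NDRG1 was at 131 and 113 CPM in mock cells of batch 1 and 114 and 95.1 CPM after IR. Over both batches its log2 fold change was -0.24 (SE 0.0924, edgeR adjusted p = 0.194) and passed with the replicate block (adjusted p = 0.00934), where 6.69% of all genes did. Its change was -0.15 without IR replicate 2 of batch 1, -0.06 with t1 alone in batch 1 and -0.46 with t2 alone. ERG was at -0.29 (edgeR adjusted p = 0.287) and ACSL3 at -0.13 (edgeR adjusted p = 0.384). ETV1, which is not among the 8 genes, was at -0.38 (95% interval -0.73 to -0.02, edgeR adjusted p = 0.272). Its IR change was -0.67 in vehicle cells, -0.78 in enzalutamide cells and -0.18 in batch 1 (edgeR adjusted p = 0.539, 0.572 and 0.807). ETV1 had as few as 20 counts in a sample. HERPUD1 and ETV5 were at 0.03 and 0.02, with intervals of -0.16 to 0.22 and -0.31 to 0.35. Apart from ETV4, the differences between the batches in the IR response of the members ran from -0.11 to 0.27, with edgeR adjusted p of 0.947 or more.

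**Figure D3:**
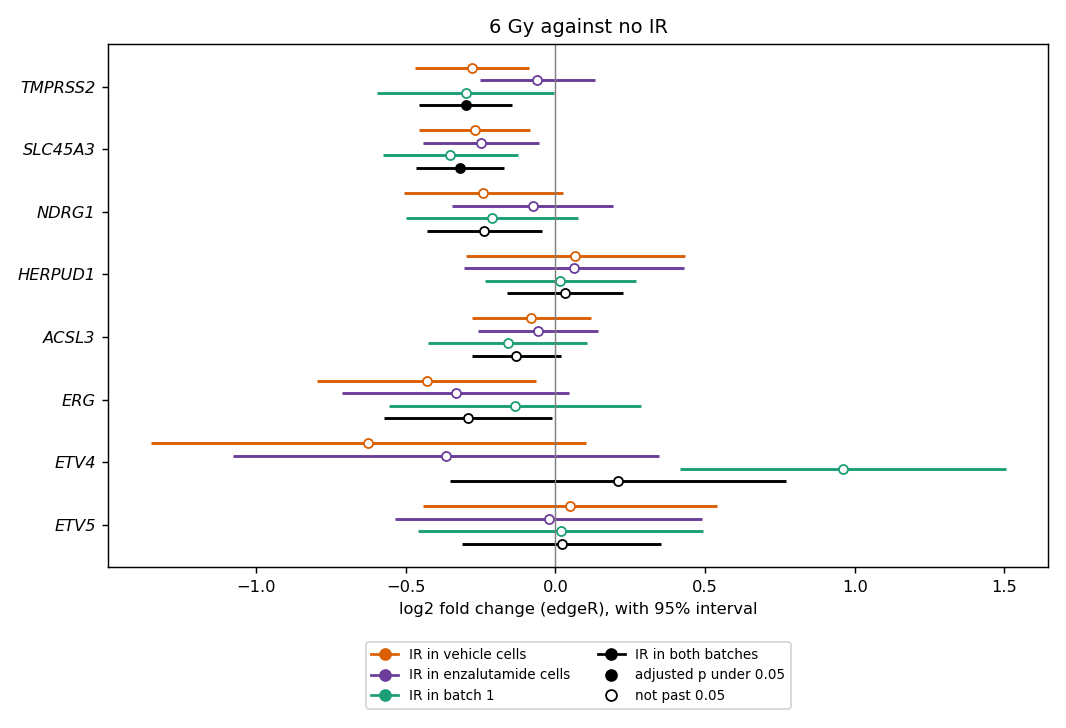
Log2 fold change of each gene, 6 Gy against no IR, with 95% intervals from edgeR, in vehicle cells and enzalutamide cells of batch 2, in batch 1 and in both batches together; filled points have an adjusted p under 0.05. TMPRSS2 and SLC45A3 lie at -0.30 and -0.32 over both batches, and ETV4 lies at 0.96 in batch 1 and -0.62 in vehicle cells.

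The sums of t1 and t2 hide opposite values in batch 1. In the t1 libraries, TMPRSS2 was at 504 and 461 CPM in mock cells and 305 and 295 CPM after IR. In the t2 libraries it was at 337 and 294 CPM in mock cells and 394 and 359 CPM after IR. With t1 alone the log2 fold change was -0.75 (edgeR adjusted p = 0.0171), and with t2 alone it was 0.24 (edgeR adjusted p = 0.139). Over all genes, 3995 of 23134 were called with t1 alone and 9800 of 21930 with t2 alone. SLC45A3 went from 65.4 and 70.1 CPM to 49.3 and 45.9 CPM in t1, a change of -0.57 (edgeR adjusted p = 0.0107), and from 55.1 and 54.8 CPM to 55.4 and 50.04 CPM in t2, a change of -0.08 (edgeR adjusted p = 0.586).

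NDRG1 ran the other way from TMPRSS2: it was at 114 and 95.9 CPM in mock and 128 and 120 CPM in irradiated t1 libraries, and at 127 and 121 CPM in mock and 85.6 and 70.5 CPM in irradiated t2 libraries. ETV4 was higher after IR in both sets, with 2.92 and 2.56 CPM against 5.90 and 5.81 CPM in t1 and 2.05 and 2.84 CPM against 4.43 and 4.30 CPM in t2. With t2 alone in batch 1, the change over both batches was -0.02 for TMPRSS2 (edgeR adjusted p = 0.926) and -0.18 for SLC45A3 (edgeR adjusted p = 0.239). With t1 alone it was -0.54 for TMPRSS2 (edgeR adjusted p = 0.0525). SLC45A3 passed over both batches with t1 alone, at -0.43 (edgeR adjusted p = 0.0234). The falls of both genes were thus larger with t1 alone than with the sums, and smaller or turned with t2 alone. The enzalutamide results use batch 2 only.

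**Figure D4:**
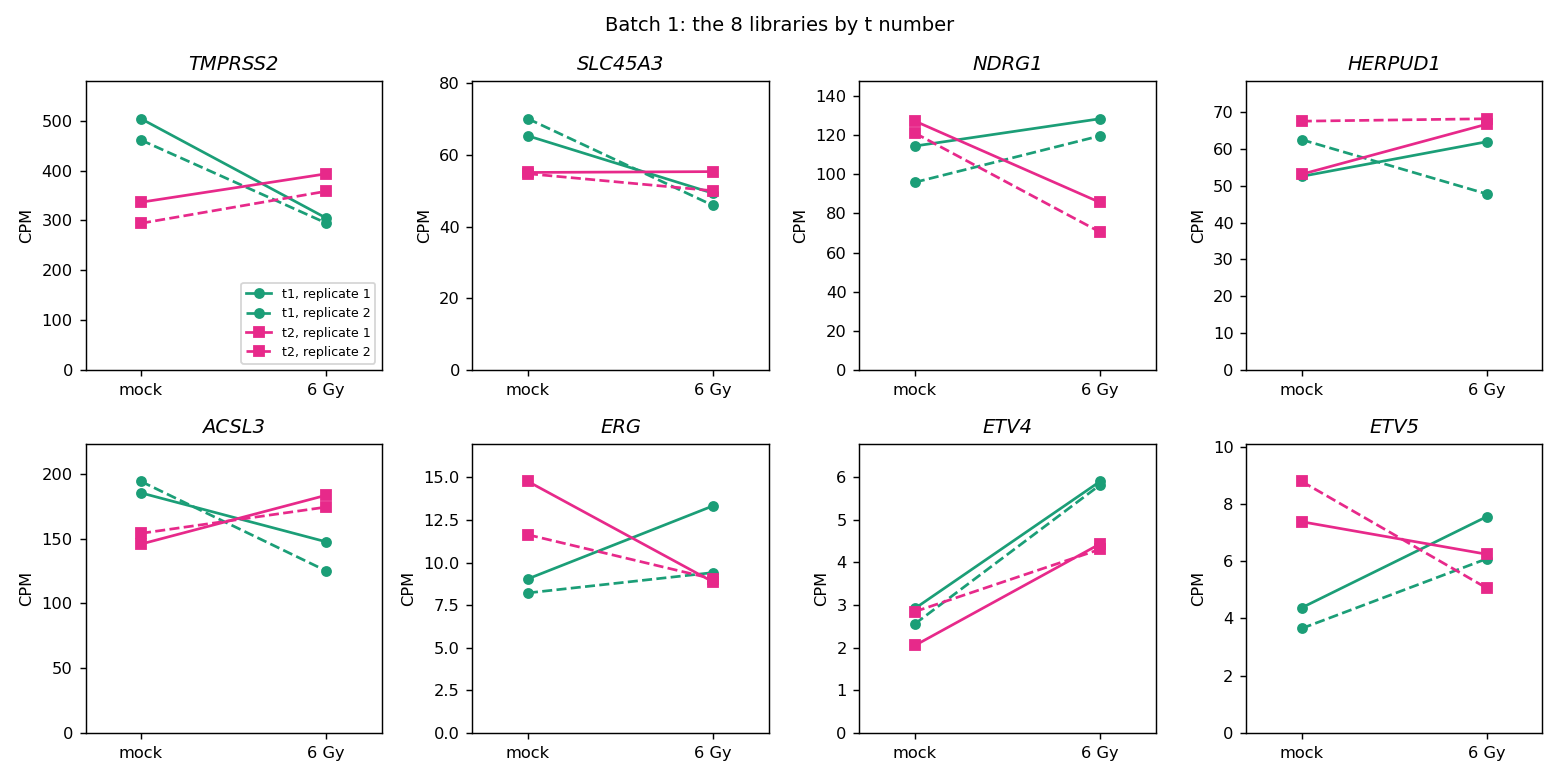
Level of the 8 genes in the 8 libraries of batch 1, in TMM-scaled CPM (linear axes from 0), with lines joining mock and 6 Gy libraries of the same replicate and t number. TMPRSS2 and ACSL3 go down in t1 and up in t2, NDRG1, ERG and ETV5 go up in t1 and down in t2, and ETV4 goes up in all 4 pairs.

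Mock and vehicle cells differed in some members between batches. NDRG1 was at 122 ± 12.5 CPM in mock cells and 71.6 ± 9.28 CPM in vehicle cells (SD, n = 2 each), and ETV5 at 6.37 and 3.09 CPM. HERPUD1 was at 62.7 ± 8.44 and 42.4 ± 8.43 CPM. TMPRSS2 was at 427 ± 12.8 and 466 ± 24.1 CPM. Batch and vehicle treatment cannot be told apart here, and no test was made.

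Other genes of the same pathway put the fall of TMPRSS2 and SLC45A3 in context. Of 25 other genes used as readouts of the androgen response, 6 fell with enzalutamide averaged over IR and none rose, and 22 of 25 were below 0. Of all genes tested, 0.0628% were called. Their median log2 fold change was -0.35, beside 0.00 over all genes tested. ZBTB10, a zinc finger protein, changed by -0.56 (edgeR adjusted p = 0.000961). ELL2, an RNA polymerase II elongation factor, changed by -0.44 (edgeR adjusted p = 0.00512). PMEPA1, a membrane inhibitor of TGF-beta signalling, and C1orf116 changed by -0.53 and -0.57 (edgeR adjusted p = 0.0165 for each). With the replicate block 14 of the 25 fell, beside 0.949% of all genes called.

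Over both batches, IR left 3 of the 25 lower and 1 higher, where 4.05% of all genes were called and 1.66% lower. C1orf116 changed by -0.27 (edgeR adjusted p = 0.0364) and PMEPA1 rose by 0.31 (edgeR adjusted p = 0.023). The other lower genes, named after their values were seen, were KLK3 at -0.41 (edgeR adjusted p = 0.0115) and HERC3 at -0.33 (edgeR adjusted p = 0.0451). The list's median was -0.18, beside -0.02 over all genes. With the replicate block 8 were lower and 1 higher, against 6.69% of all genes called.

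Of 7 other genes reported as 5′ partners of ETS fusions, none passed with enzalutamide, and their median was -0.09. KLK2 and FKBP5 are in this list and also among the 25 androgen response genes above. The lowest, KLK2, a kallikrein protease named here after its values were seen, was at -0.82 (SE 0.233, edgeR adjusted p = 0.549). With the block, which calls 0.949% of all genes, KLK2 and FKBP5 fell (adjusted p = 4.67e-08 and 0.00502). With IR over both batches none of the 7 passed, and KLK2 did with the block (adjusted p = 0.0129), where 6.69% of all genes were called.

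Of 25 other ETS family genes none passed with enzalutamide (median -0.03). With the block 3 fell: EHF at -0.42, ELK4 at -0.29 and SPDEF at -0.25 (adjusted p = 3.21e-05, 0.00163 and 0.00832). The block called 0.949% of all genes in that comparison. After IR over both batches 1 of the 25 fell, a share near the 4.05% of all genes called: SPIC, at -0.72 (SE 0.166, edgeR adjusted p = 0.0138). With the block EHF fell too (adjusted p = 0.00581), where 6.69% of all genes were called. Of 16 endoplasmic reticulum stress genes, the group to which HERPUD1 belongs, none passed in either comparison, with medians of 0.06 and 0.02. With the block 1 of them, DDIT3, rose in both (adjusted p = 0.0165 and 0.0196). For IR, 1 of 16 is near the 6.69% of all genes called. Of 10 relatives of NDRG1, ACSL3 and SLC45A3 none passed in either, with medians of -0.05 and -0.02. With the block ACSL1 and SLC45A2 fell after IR (adjusted p = 0.0101 and 0.0066), beside the same 6.69% of all genes. The genes named from the block were chosen after their values were seen.

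**Figure D5:**
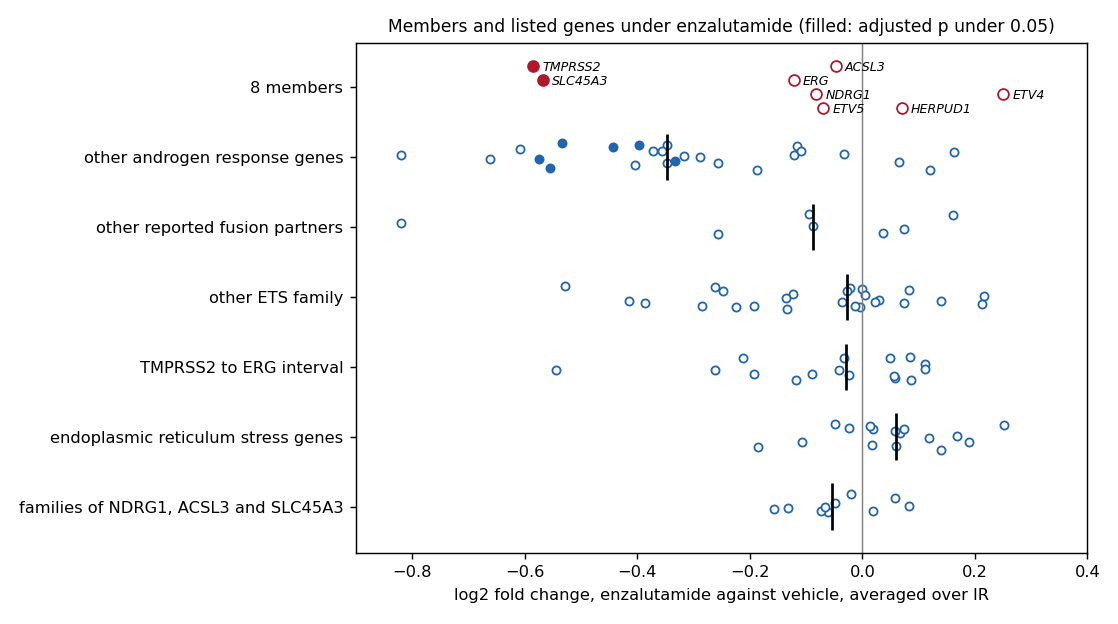
Log2 fold change under enzalutamide, averaged over IR, of the 8 genes (top row) and of 6 lists of related genes; each point is a gene, filled where the adjusted p is under 0.05, and vertical bars are list medians. TMPRSS2 and SLC45A3 lie among the lower androgen response genes, whose median is -0.35, and the other 6 members lie between -0.12 and 0.25.

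The neighbours of the 2 genes that fell were also read. TMPRSS2 and ERG lie on the same chromosome, and none of the 16 protein-coding genes between them passed with enzalutamide (median -0.03) or with IR over both batches (median -0.08). With the replicate block 1 of them, DSCAM, fell after IR (-0.32, adjusted p = 0.0414), where 6.69% of all genes were called. MX1, an interferon-induced GTPase 5.1 kb from TMPRSS2, was at -0.12 with enzalutamide (edgeR adjusted p = 0.918). ELK4, an ETS gene 25.8 kb from SLC45A3 that is known to form read-through transcripts with it, was at 105 and 98.4 CPM in vehicle and 91.3 and 74.7 CPM with enzalutamide. Averaged over IR its log2 fold change was -0.28 (SE 0.0634, edgeR adjusted p = 0.266), and it passed with the replicate block (adjusted p = 0.00163, 0.949% of all genes). NUCKS1, the next gene on the other side of SLC45A3 at 32.3 kb, was at -0.06 (edgeR adjusted p = 0.925).

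Likeness to TMPRSS2 and SLC45A3 was described by Pearson's r of log2(CPM + 0.5) over the 8 libraries of batch 2, among 18729 genes with a mean of at least 50 counts. The 8 libraries share treatments, so these values describe the pattern and carry no test. The genes most like TMPRSS2 were ZBTB16 (r = 0.989), a zinc finger transcription factor, ELOVL2 (r = 0.976), a fatty acid elongase, and SLC45A3 itself (r = 0.971). Among the genes most like SLC45A3 were GDPD1 (r = 0.982) and MAOA (r = 0.981), the monoamine oxidase A gene, with TMPRSS2 in place 9. Against TMPRSS2, ERG had r = 0.525, ACSL3 r = 0.467, NDRG1 r = 0.394 and HERPUD1 r = -0.07.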

How the data were processed

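The authors deposited a table of read counts per gene for each batch. Per the submitters' processing notes the build was hg38 and the tools were cutadapt 1.8.1, Bowtie2 2.4.4 and SAMtools 1.9. The counting tool, annotation, use of strand and treatment of duplicates are not given in the sources used here. Of 60605 Ensembl identifiers, 60463 matched a table of gene names. Gene positions and promoter sequences come from RefSeq on GRCh38.p14.

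The t1 and t2 counts of a batch 1 replicate were summed. Genes kept by filterByExpr were fitted with edgeR 4.0.16 (TMM factors, glmQLFit, glmQLFTest) in R 4.3.3, and two-sided p-values were adjusted over all genes of each comparison by the Benjamini-Hochberg method, with a threshold of 0.05. The 8 samples of batch 2 shared 1 model with enzalutamide, IR and their interaction. The effect averaged over IR came from the model without the interaction. IR over both batches had batch as a covariate and left out enzalutamide samples. The 95% intervals use the SE derived from the F statistic. CPM are TMM-scaled. The scripts were tested on simulated counts.

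Samples of the same replicate number, as the labels give it, deviated together from their group means: the 6 pairs of groups in batch 2 had correlations of 0.102 to 0.262, and the pair in batch 1 had 0.198. The number may therefore pair samples, but what samples of the same number share was not tested. The main tests did not use the number. Values with it as a block are given where they change a call. Alternatives were RLE size factors, total counts, no filter, DESeq2 1.42.0, the block, t1 or t2 alone, and each sample left out.

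The 8 genes and the lists were chosen with earlier results of these data known. Besides the 8, ETV1 and ELK4 are always named, then up to 5 called genes of each list by smallest p, and the 3 genes most like TMPRSS2 and SLC45A3. Some genes that this rule selects are not reported here. Totals of the libraries ranged from 3438642 to 19905824 counts.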

Additional observations from a re-analysis of the deposited data

Results flagged for a closer look

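In 5 of the 8 genes, the t1 and t2 libraries of batch 1 moved in opposite directions with IR, each time in both replicates. The share of all genes with this pattern was not computed, so it cannot be called particular to these 8. With t1 alone 3995 of 23134 genes were called, and with t2 alone 9800 of 21930. As the log2 ratio of mean CPM, irradiated to mock libraries, TMPRSS2 had -0.69 in t1 and 0.25 in t2, and ACSL3 had -0.48 and 0.26. NDRG1 had 0.24 in t1 and -0.67 in t2, ERG had 0.40 and -0.56, and ETV5 had 0.77 and -0.52. The difference between t1 and t2 was not tested. The labels do not say what the t numbers stand for, so the samples they mark cannot be described further here.

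ETV4 changed sign between batches: on the same scale IR gave 0.96 in batch 1 and -0.63 in vehicle cells of batch 2. Both irradiated samples lay above both mock samples in batch 1, and the share of all genes that did so is not given here. In batch 2 both lay below both vehicle samples, as in 22.6% of all genes tested. In batch 2 the replicate 3 samples were nearly equal, at 1.9003 and 1.8888 CPM, and without vehicle replicate 4 the change was -0.31. The difference was tested and did not pass after adjustment over all genes (edgeR adjusted p = 0.450). These patterns were found among 32 pairs of contrasts looked at.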

How the results depend on the processing

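Averaged over IR, the 2 calls with enzalutamide kept their direction and threshold under all 13 alternatives. Of the 8 genes, the number called elsewhere moved as follows. Enzalutamide without IR went from 1 to 2 with no filter, DESeq2 or the replicate block, and to 0 to 1 with a sample left out. Enzalutamide with IR went from 0 to 2 with no filter, DESeq2 or the block. IR in vehicle cells went from 0 to 2 with the block. IR in batch 1 went from 0 to 1 with no filter, 3 with the block, 4 with t1 alone, 2 with t2 alone and 0 to 1 with a sample left out. IR over both batches went from 2 to 1 with RLE factors, 0 with no filter, 1 with t1 alone, 0 with t2 alone and 0 to 2 with a sample left out, and was 3 with the block. The difference in IR between batches went from 0 to 2 with t2 alone, where 5646 of 27773 genes were called. For IR in batch 1, 3995 of 23134 genes were called with t1 alone and 9800 of 21930 with t2 alone. There the block called 2332 of 25889 genes, and no filter called 1157 of 50371. Counts of the 8 genes are to be read beside these and the counts over all genes below. The block changed no other call of the 8 genes than those given in the report.

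Signs reversed in these cases. With t2 alone, IR gave 0.24 for TMPRSS2 in batch 1, 0.0737 for ACSL3 over both batches, and differences between batches of 0.53 for TMPRSS2 (edgeR adjusted p = 0.017) and 0.20 for SLC45A3. With total counts the TMPRSS2 difference between batches was 0.0205. Leaving out a sample moved TMPRSS2 under IR in enzalutamide cells from -0.0933 to 0.00114, the SLC45A3 interaction from -0.0244 to 0.0820, and HERPUD1 under enzalutamide from -0.0507 to 0.168. The cause was not tested.

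Over all genes, the number called moved by more than 1.5 times in these settings. Averaged enzalutamide went from 18 to 230 with no filter, 54 with DESeq2 and 272 with the block. Without IR it went from 3 to 74, 13 and 55, and with IR from 3 to 64, 7 and 55. IR in vehicle cells went from 314 to 624 with no filter and 1315 with the block, and IR in enzalutamide cells from 263 to 556 and 951. The interaction went from 0 to 32 and 1. IR in batch 1 went from 731 to 1157 with no filter, 2332 with the block, 3995 with t1 and 9800 with t2 alone. IR over both batches went from 1182 to 1954 with the block and 657 with t2 alone. The difference between batches went from 31 to 119 with no filter, 96 with the block, 452 with t1 and 5646 with t2 alone. With a sample left out, averaged enzalutamide gave 7 to 36, without IR 2 to 10, with IR 1 to 6, the interaction 0 to 4, IR in vehicle cells 161 to 511, IR in enzalutamide cells 139 to 434, IR in batch 1 587 to 1509, and the difference between batches 21 to 45. Low counts limit ERG, ETV4 and ETV5, and 2 samples a group limit all genes.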
